A study of Saccharomyces cerevisiae with 11 samples.

Results

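The data described here are the 5 RNA-seq libraries, of 11 in the series, that compare yeast carrying a plasmid copy of SLX5 with yeast carrying the empty plasmid, both in cells that express the short, non-expanded form of huntingtin (Htt). The libraries were chosen by their labels: 25Q [SLX5] with 3 libraries (a, b and c) and 25Q [V] with 2 (a and b). Of the 7126 genes in the count table, 6321 passed a filter on low counts and were tested.

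Every culture was the Saccharomyces cerevisiae strain GAL-NLS-Htt25Q-GFP, a W303 integrant in which the galactose-inducible GAL promoter drives an Htt-25Q fragment fused to a nuclear localization signal (NLS) and GFP, with LEU2 as the integration marker. The 25Q [SLX5] cultures held BOK372 (SLX5, CEN, HIS) and the 25Q [V] cultures held BOK333 (empty vector), where CEN is a centromere that keeps a plasmid at a low copy number. All of them keep the chromosomal SLX5. Cultures grew at 25 °C on 2% raffinose, and galactose was then added to 2% for 4 h. The letters a, b and c are clone labels. No source says whether the clones were grown on separate days, so the p-values measure the spread between libraries. That spread was estimated within groups over all 11 libraries of the series, including those of cells with an expanded Htt (Htt103Q). The authors removed a further 25Q [V] library for its share of ribosomal RNA (rRNA), which leaves this group with 2. The labels name an mRNA kit and the methods a total RNA kit, both stranded. The comparison asks what extra SLX5 does to transcripts when the Htt protein has no expanded glutamine tract.

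SUMO is a small protein that is joined to other proteins, often in the nucleus. Slx5 and Slx8 form a SUMO-targeted ubiquitin ligase (STUbL): Slx5 binds SUMO chains on a substrate, and the pair then adds ubiquitin, which can send the substrate to the proteasome. In yeast, Gcn4 is the activator of amino acid synthesis genes. It binds the core motif TGACTC. Lys14 activates several genes of the lysine pathway through a TCCNNNGGA element.

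Estimated counts per library totalled 23860075 to 29440801 in 25Q [SLX5] and 19942070 to 23838732 in 25Q [V]. Both libraries of clone letter a stood apart in rRNA: 2.40% of counts in 25Q [SLX5] a and 2.21% in 25Q [V] a, against 0.254% to 0.364% in the other libraries compared. They also held the 2 ends of the first principal component of the 5 libraries, at -19.7 for 25Q [SLX5] a and 12.9 for 25Q [V] a. The second component was of nearly equal weight (31% against 31.5% of the variance). There the libraries of clone letter a shared a side, at 8.27 for 25Q [SLX5] a and 16.4 for 25Q [V] a. The others stood at -3.4 (25Q [SLX5] b), -12.6 (25Q [SLX5] c) and -8.7 (25Q [V] b). No pair of libraries agreed within sampling noise. Levels are given in CPM, a gene's counts scaled to the size of its library after normalization by the TMM method. Fold changes are log2 of 25Q [SLX5] over 25Q [V], and a gene rose or fell where the adjusted p of edgeR's quasi-likelihood test was under 0.05.

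By that rule 3 of 6321 genes changed, which is 0.0475%: SLX5 rose (0.0158%), and SNZ1 and LYS20 fell (0.0316%). Before adjustment, 565 genes or 8.94% had a p under 0.05. DESeq2, run as an alternative, called 34 of the 3169 genes it kept, or 1.07%, with 16 higher (0.505%) and 18 lower (0.568%) in 25Q [SLX5], and its calls held all 3 genes. Of the 18 lower genes, 3 are lysine and 3 are arginine synthesis genes, and of the 16 higher genes, 4 are genes of glycolysis and fermentation. The 34 genes all had groups that did not overlap. Over all genes tested, 20.4% were higher without overlap and 18.8% were lower without overlap, so with 3 libraries against 2 this alone is common. The median log2 fold change of all genes tested was 0.00.

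SLX5 itself (YDL013W, chromosome IV, 429067 to 430926, R64) was the check on the labels. It stood at 1216, 1173 and 1147 CPM in 25Q [SLX5] a, b and c, against 94.4 and 99.7 CPM in 25Q [V] a and b. Each plasmid library was far above both vector libraries, and the spread inside each group was small. The means were 1179 ± 34.8 CPM in 25Q [SLX5] and 97.0 ± 3.69 CPM in 25Q [V] (SD, n = 3 and 2), a 12.2-fold higher level (log2 3.60 with SE 0.18, edgeR adjusted p = 1.17e-06). Without the libraries of clone letter a it was 3.54.

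**Figure D1:**
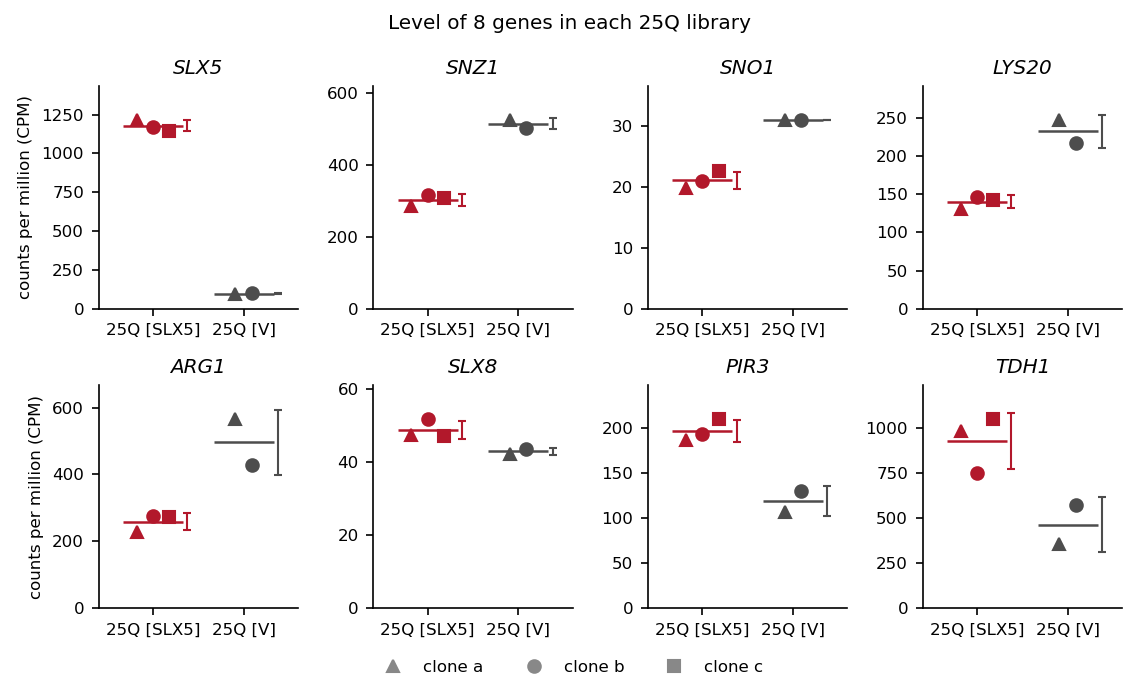
Level of 8 genes in each library, in CPM from 0, with 25Q [SLX5] in red and 25Q [V] in grey. Markers are libraries by clone letter, horizontal lines are group means and the side bars are the SD (n = 3 and 2). SLX5 stood at 1147 to 1216 CPM in 25Q [SLX5] and at 94.4 to 99.7 CPM in 25Q [V], and in all 8 genes the groups did not overlap.

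SLX8, which encodes the partner of Slx5 in the ligase, stood at 47.4, 51.7 and 47.1 CPM in 25Q [SLX5], against 42.2 and 43.6 CPM in 25Q [V]. The plasmid libraries were all slightly above the vector libraries, and the log2 fold change of 0.18 (SE 0.10) did not pass the test (adjusted p = 0.633, edgeR). In TPM, a scale that corrects for transcript length, SLX5 was 8.67 to 9.78 times SLX8 in 25Q [SLX5], against 0.852 and 0.872 times in 25Q [V]. The transcripts of the 2 subunits were thus near equal in the vector cultures, and SLX5 alone was in large excess in the plasmid cultures.

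Of the 20 genes listed for the SUMO and STUbL pathway, SLX5 rose, none fell and 19 did not pass the test. SMT3, which encodes SUMO, stood at 239 to 275 CPM in 25Q [SLX5] and 243 to 269 CPM in 25Q [V]. UBC9, the SUMO-conjugating enzyme, stood at 36 to 40.0 CPM in 25Q [SLX5] and 36.9 to 41.4 CPM in 25Q [V]. Both ranges overlapped. The SUMO ligase gene SIZ1, the protease genes ULP1 and ULP2, and ULS1, which encodes another STUbL, overlapped between the groups as well. CDC48, the segregase that extracts ubiquitinated proteins, was at 880 to 929 CPM in 25Q [SLX5], above the 780 and 832 CPM of 25Q [V], with an adjusted p of 0.610 (edgeR). Among 11 genes named as STUbL substrates or partners, none passed the test. RTG3, which encodes a subunit of the retrograde response activator, had 68.3 to 73.2 CPM in 25Q [SLX5] and 84.5 to 85.4 CPM in 25Q [V] (adjusted p = 0.379, edgeR), and the groups did not overlap.

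None of the genes around SLX5 on chromosome IV passed the test besides SLX5 itself. NOP1, the neighbour on one side, which encodes fibrillarin, had 329 to 369 CPM in 25Q [SLX5] and 370 and 406 CPM in 25Q [V] (adjusted p = 0.690, edgeR). YDL012C, on the other side, had 135 to 153 CPM in 25Q [SLX5] and 141 to 143 CPM in 25Q [V]. The lowest log2 fold change among the 11 genes listed there, -0.98, belonged to YDL016C, which had under 0.2 CPM in every 25Q library. HIS3, the marker gene of the SLX5 plasmid, stood at 1264 to 1357 CPM in 25Q [SLX5] and 1091 to 1178 CPM in 25Q [V], without overlap and without passing the test (adjusted p = 0.620, edgeR). LEU2, the integration marker, was at 1159 to 1254 CPM in 25Q [SLX5] and 1116 to 1133 CPM in 25Q [V]. The galactose genes were high in both groups, as with GAL10 at 7600 to 8169 CPM in 25Q [SLX5] and 6628 to 7161 CPM in 25Q [V]. The alpha-factor gene MF(ALPHA)1 stood at 1872 to 2394 CPM in 25Q [SLX5] and 2039 to 2352 CPM in 25Q [V], whereas STE2, a gene of a-type cells, was at 1.81 to 2.73 CPM in 25Q [SLX5] and 1.94 to 2.25 CPM in 25Q [V]. Every library thus carried the same mating type signature. The Htt transgene was not analysed here.

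SNZ1 fell. Its product makes vitamin B6 (pyridoxal phosphate) together with the glutaminase subunit Sno1, and the genes of the 2 subunits lie head to head on chromosome XIII. SNZ1 stood at 285, 315 and 308 CPM in 25Q [SLX5] a, b and c, against 526 and 504 CPM in 25Q [V] a and b. The groups were well apart, with a mean of 303 ± 16 CPM in 25Q [SLX5] and 515 ± 15.4 CPM in 25Q [V] (SD, n = 3 and 2). On the log2 scale this was -0.77 (SE 0.09, edgeR adjusted p = 0.00597). SNO1 stood at 19.8, 21 and 22.6 CPM in 25Q [SLX5], against 31.0 and 30.95 CPM in 25Q [V]. It too was lower in every plasmid library, with a log2 fold change of -0.55 (SE 0.12), though it did not pass the test (adjusted p = 0.149, edgeR).

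None of the other vitamin B6 genes passed the test. BUD16, the pyridoxal kinase gene, was lower in every plasmid library, at 31.3, 29.5 and 26.96 CPM in 25Q [SLX5], against 33.6 and 34.6 CPM in 25Q [V], or -0.22 on the log2 scale (SE 0.09). SNZ2 and SNZ3, close relatives of SNZ1 whose reads could be split between copies by the counting, stood at 64.4 to 65.2 CPM and 63.9 to 66.6 CPM in 25Q [SLX5], against 61.4 to 63.9 CPM and 56.9 to 67.7 CPM in 25Q [V]. PDX3, which encodes the pyridoxine phosphate oxidase, stood at 236 to 255 CPM in 25Q [SLX5] and 239 to 245 CPM in 25Q [V]. Over the 9 genes of this list, 5 had a positive and 4 a negative log2 fold change, 1 fell and the median was 0.02.

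The region between SNZ1 and SNO1 holds copies of the Gcn4 core. The searched window was the 500 bases before the start codon, read on both strands of the R64 genome. Among all 6006 protein-coding genes with a full window, 12.7% hold TGACTC. The 2 windows shown are on chromosome XIII, read in the SNZ1 direction, with the motif in capitals, and they lie in the SNO1 window too. They are shown because SNZ1 had the smallest p of the genes that fell. A match is a string of letters and not evidence of binding.
SNZ1 254 bases before the start codon, chrXIII:458144-458169, plus strand: catgacataaTGACTCagccgacaag
SNZ1 179 bases before the start codon, chrXIII:458219-458244, plus strand: catttcttcaTGACTCtgacacactc
BUD16 is the other vitamin B6 gene with a match. SNZ2 and SNZ3 have none in their windows.

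LYS20 also fell. It encodes a homocitrate synthase, the first enzyme of lysine synthesis, and stood at 131, 147 and 143 CPM in 25Q [SLX5] a, b and c, against 248 and 218 CPM in 25Q [V] a and b. Every plasmid library was below both vector libraries. The means were 140 ± 8.53 CPM in 25Q [SLX5] and 233 ± 21.4 CPM in 25Q [V] (SD, n = 3 and 2), or -0.73 on the log2 scale (SE 0.09, edgeR adjusted p = 0.0122). LYS21 encodes the second homocitrate synthase and is close to LYS20 in sequence, so reads could be shared between the pair. LYS21 was at 252 to 271 CPM in 25Q [SLX5] and 295 to 322 CPM in 25Q [V], a log2 fold change of -0.25 (SE 0.07).

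Of the 9 genes of lysine synthesis, 1 fell and 8 did not pass the test. In 25Q [SLX5], 7 were lower without overlap between the groups, against 18.8% of all genes tested. LYS1, the last enzyme of the route, stood at 174, 202 and 208 CPM in 25Q [SLX5], against 286 and 260 CPM in 25Q [V]. LYS9, the saccharopine reductase that acts just before it, stood at 108, 110 and 111 CPM in 25Q [SLX5], against 146 and 141 CPM in 25Q [V]. DESeq2 called both, with adjusted p = 0.0266 and 0.000186. LYS2, the aminoadipate reductase, LYS4, the homoaconitase, and LYS12, the homoisocitrate dehydrogenase, had log2 fold changes of -0.39, -0.45 and -0.19 (SE 0.10, 0.17 and 0.08), and LYS2 was at -0.25 without 25Q [V] a.

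LYS5 and LYS14 were the 2 members that overlapped between the groups. LYS5, which activates Lys2 by adding its cofactor, was at 23.6 to 25.6 CPM in 25Q [SLX5] and 23.1 to 24.7 CPM in 25Q [V]. LYS14 was at 74.4 to 83.6 CPM in 25Q [SLX5] and 71.2 to 79.5 CPM in 25Q [V]. The list median was -0.39, against 0.00 over all genes tested. Without the libraries of clone letter a it was -0.20, with 8 of 9 members negative.

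The Lys14 element, searched on both strands as TCCNNNGGA, is in the window of 5.89% of protein-coding genes. Of the 9 lysine genes, 5 hold it: LYS21, LYS12, LYS9, LYS1 and LYS14. Lys14 is known for lysine genes, so the share describes the list and not the change. LYS14 itself overlapped between the groups, while LYS4 and LYS2 were lower and lack the element. LYS20 has neither this element nor the Gcn4 core in its 500 bases. The windows of LYS9 and LYS1, which DESeq2 called, are shown with the Lys14 element in capitals, followed by a LYS1 window with the Gcn4 core on the opposite strand.
LYS9 225 bases before the start codon, chrXIV:715595-715623, minus strand: gaatcgaaatTCCGTTGGAaaaattcgct
LYS9 163 bases before the start codon, chrXIV:715533-715561, minus strand: attgagaattTCCAATGGAattatcagca
LYS1 196 bases before the start codon, chrIX:420914-420942, minus strand: atttttttttTCCAGCGGAatttggaatt
LYS1 134 bases before the start codon, chrIX:420855-420880, minus strand: cagcgacaaaGAGTCAtaaagtcatc

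Arginine synthesis was the amino acid route with the largest median shift of those listed, though no gene of it passed the main test. All 10 genes had a negative log2 fold change, against 48.6% of the genes tested. Of the 10, 8 were lower without overlap between the groups, against 18.8% of the genes tested. ARG1, the argininosuccinate synthase, stood at 229, 276 and 271 CPM in 25Q [SLX5], against 566 and 427 CPM in 25Q [V]. The vector libraries were higher than every plasmid library, and they also differed from each other. Its log2 fold change of -0.94 (SE 0.15) was just outside the threshold (adjusted p = 0.0623, edgeR), and DESeq2 called it (adjusted p = 9.82e-07). In edgeR it passed without 25Q [V] b (-1.13, adjusted p = 0.0447) and without Htt103Q [V] c (adjusted p = 0.0216), while without 25Q [V] a its adjusted p was 0.998. Without the libraries of clone letter a the value was -0.64.

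ARG8, the acetylornithine aminotransferase of the mitochondrion, stood at 43.0, 44.4 and 49.7 CPM in 25Q [SLX5], against 76.0 and 62.4 CPM in 25Q [V]. ARG7, which recycles acetyl groups in ornithine synthesis, stood at 178, 194 and 189 CPM in 25Q [SLX5], against 257 and 240 CPM in 25Q [V]. In both of them 25Q [V] a was the highest library. Their log2 fold changes were -0.60 for ARG8 and -0.41 for ARG7 (SE 0.11 and 0.07), and DESeq2 called ARG7. The list median was -0.41, and -0.21 without the libraries of clone letter a, where all 10 members stayed negative.

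The windows of all 10 arginine genes hold the Gcn4 core, against 12.7% of all protein-coding genes. Gcn4 is best known for these targets, so the share describes the list and not the change. ARG1 has 2 copies in opposite directions, shown here on the gene's own strand.
ARG1 345 bases before the start codon, chrXV:218856-218881, plus strand: gattttttagTGACTCatgtcgcatt
ARG1 274 bases before the start codon, chrXV:218927-218952, plus strand: ccgtatggaaGAGTCAtttaaaggca

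**Figure D2:**
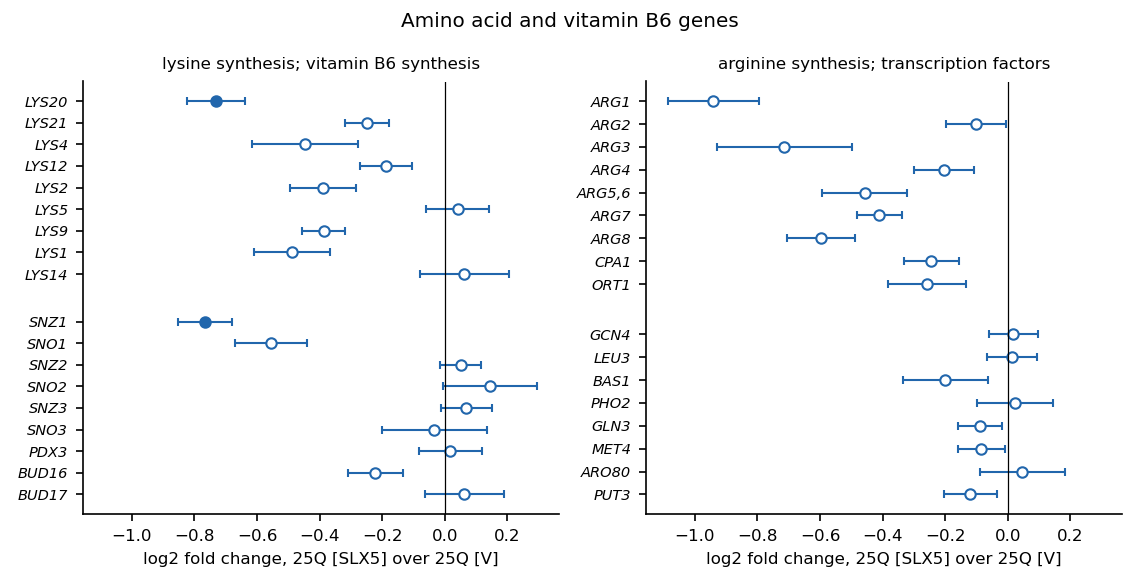
Log2 fold change of 25Q [SLX5] over 25Q [V] for genes of lysine and vitamin B6 synthesis (left) and of arginine synthesis with transcription factors of amino acid synthesis (right). Points are estimates, bars are the SE and filled points had an adjusted p under 0.05. SNZ1 (-0.77) and LYS20 (-0.73) are filled, every arginine gene drawn lies left of 0 and GCN4 lies at 0.02.

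GCN4, which encodes the activator itself, did not pass the test. It stood at 1234, 1172 and 1203 CPM in 25Q [SLX5], against 1152 and 1224 CPM in 25Q [V], with overlapping groups. Gcn4 is known to be controlled mostly at translation, which these data do not measure. None of the 9 transcription factor genes listed passed the test. BAS1, an activator of histidine and purine genes, was at 67.8 to 75.2 CPM in 25Q [SLX5] and 80.1 to 81.4 CPM in 25Q [V], and LEU3, the activator of leucine genes, overlapped between the groups.

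In the other amino acid routes no gene passed the main test, and the shifts were smaller. Of 14 aromatic genes, 13 had a negative log2 fold change, with a list median of -0.16. ARO8, an aromatic aminotransferase, was at 372 to 393 CPM in 25Q [SLX5] and 425 to 463 CPM in 25Q [V]. Of 12 genes for homoserine, threonine, serine and glycine, 11 were negative, with a median of -0.11. HOM2, the aspartate semialdehyde dehydrogenase, was at 613 to 648 CPM in 25Q [SLX5] and 701 to 788 CPM in 25Q [V]. The 7 histidine genes were mixed, with 5 negative and a median of -0.09, which was 0.01 without the libraries of clone letter a. HIS5, the histidinol phosphate aminotransferase, was at 278 to 301 CPM in 25Q [SLX5] and 339 to 405 CPM in 25Q [V]. DESeq2 called ARO8, HOM2 and HIS5, with log2 fold changes of -0.22, -0.25 and -0.36 in the main fit. Without 25Q [V] a, HOM2 was at -0.16 and HIS5 at -0.23.

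Beyond these routes, DESeq2 placed 4 further genes among its 12 largest falls. SRY1, a 3-hydroxyaspartate dehydratase that uses pyridoxal phosphate, stood at 87.2, 88.6 and 87.5 CPM in 25Q [SLX5], against 120 and 116 CPM in 25Q [V]. YHI9 stood at 105, 110 and 105 CPM in 25Q [SLX5], against 156 and 141 CPM in 25Q [V]. Both were lower in each plasmid library, with log2 fold changes of -0.43 and -0.47 (SE 0.08 each). NCE103, the carbonic anhydrase gene, stood at 629, 575 and 582 CPM in 25Q [SLX5], against 791 and 773 CPM in 25Q [V]. ATO3, which encodes a putative ammonium exporter, had a log2 fold change of -0.42 (SE 0.10). When only the 25Q libraries were fitted, edgeR called 8 genes, namely the 3 above with YHI9, SRY1, LYS9, FIT2 and FMP45.

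Ribosome biogenesis genes encode the factors that process rRNA and assemble subunits, and all 86 listed had a negative log2 fold change. None passed the main test, and 63 were lower without overlap, against 18.8% of all genes tested. BRX1, a factor of large subunit assembly, stood at 108, 108 and 108 CPM in 25Q [SLX5], against 137 and 155 CPM in 25Q [V]. NOC2, which acts in export of pre-ribosomes, stood at 106, 110 and 99.7 CPM in 25Q [SLX5], against 127 and 126 CPM in 25Q [V]. NOC2 was the one member that DESeq2 called (log2 fold change -0.27, SE 0.07). The list median was -0.24, and -0.18 with 84 of 86 members negative when the libraries of clone letter a were left out. The median difference between single libraries ran from -0.40 to -0.07, the smallest between 25Q [SLX5] b and 25Q [V] b.

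Cytosolic ribosomal protein genes followed with a smaller shift. Of 138, 135 were negative and the median was -0.09. Lower without overlap were 79, against 18.8% of all genes tested. Many of these genes exist as near-identical pairs, so the split of reads within a pair is uncertain. RPS22A had 430 to 453 CPM in 25Q [SLX5] and 522 to 529 CPM in 25Q [V]. No ribosomal protein gene passed the test.

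**Figure D3:**
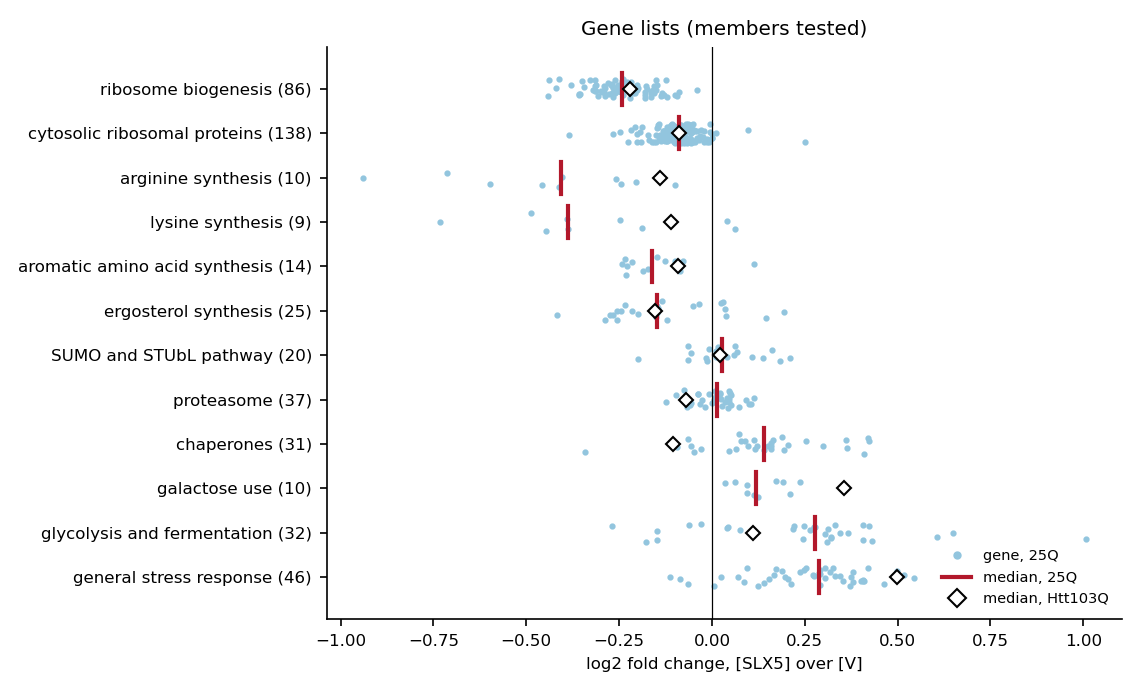
Log2 fold change of every tested member of 12 gene lists (blue points, 25Q [SLX5] over 25Q [V]), with the list median in red and the median of the same list for Htt103Q [SLX5] over Htt103Q [V] as a diamond. SLX5 (3.60) is left off its list's points. All 86 ribosome biogenesis genes lie left of 0 and 43 of 46 stress genes lie right of 0.

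On the higher side, glycolysis and fermentation genes stood out in size of expression. Of 32 tested, 26 had a positive log2 fold change, against 51.4% of all genes. Of the 32, 23 were higher without overlap, against 20.4% of all genes. PGK1, the phosphoglycerate kinase, stood at 3975, 3603 and 3711 CPM in 25Q [SLX5], against 2559 and 3050 CPM in 25Q [V]. GPM1, the phosphoglycerate mutase, stood at 4070, 3721 and 3937 CPM in 25Q [SLX5], against 2923 and 3295 CPM in 25Q [V]. The vector library of clone letter a was the lowest of the 5 in both. DESeq2 called PGK1, GPM1 and the enolase gene ENO2, with main-fit log2 fold changes of 0.42, 0.33 and 0.32 (SE 0.10, 0.08 and 0.08).

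TDH1, a minor glyceraldehyde 3-phosphate dehydrogenase gene with close relatives, had the largest value of that list. It stood at 983, 750 and 1048 CPM in 25Q [SLX5], against 353 and 569 CPM in 25Q [V]. The groups did not overlap but each varied widely, and the log2 fold change of 1.01 (SE 0.28) passed neither test (adjusted p = 0.379, edgeR). The list median was 0.28, and 0.17 without the libraries of clone letter a.

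Genes of the general stress response, the set that yeast induces in common under many stresses, had a median of 0.29. Of the 46, 43 were positive. Higher without overlap were 32, against 20.4% of all genes tested. None rose by the main test. FMP45, a membrane protein of the cell cortex, stood at 161, 154 and 171 CPM in 25Q [SLX5], against 110 and 112 CPM in 25Q [V]. GND2, the minor 6-phosphogluconate dehydrogenase, stood at 146, 126 and 124 CPM in 25Q [SLX5], against 89.8 and 101 CPM in 25Q [V]. TFS1, an inhibitor of carboxypeptidase Y, stood at 466, 414 and 425 CPM in 25Q [SLX5], against 311 and 357 CPM in 25Q [V]. DESeq2 called these 3, with main-fit log2 fold changes of 0.55, 0.46 and 0.38 (SE 0.14, 0.12 and 0.11). Without the libraries of clone letter a the list median was 0.13, with 38 of 46 positive.

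Among chaperone genes, 25 of 31 were positive and none passed the test. SSA1, a major cytosolic Hsp70 gene with close relatives, was at 2546 to 3113 CPM in 25Q [SLX5] and 1939 to 2320 CPM in 25Q [V]. SSA4, its stress-inducible relative, was at 109 to 133 CPM in 25Q [SLX5] and 83.1 to 96.0 CPM in 25Q [V]. The list median was 0.14, and 0.04 without the libraries of clone letter a. Proteasome genes, 37 in all, had a median of 0.01 and no member past the test.

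**Figure D4:**
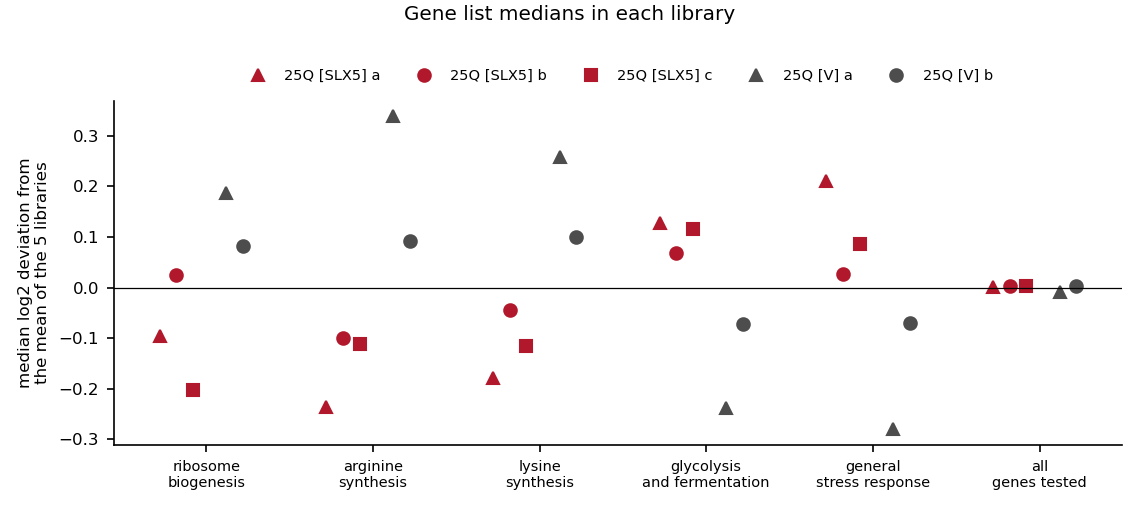
Median over the genes of a list of the log2 deviation of each library from the mean of the 5 libraries, with 25Q [SLX5] in red, 25Q [V] in grey and the marker giving the clone letter. 25Q [SLX5] a and 25Q [V] a mark the ends for arginine synthesis (-0.24 and 0.34), lysine synthesis (-0.18 and 0.26), glycolysis (0.13 and -0.24) and stress (0.21 and -0.28).

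The genes that DESeq2 placed on the higher side include PIR3 and FIT2, of the cell wall, which did not pass the main test. PIR3, a covalently linked cell wall protein, stood at 187, 193 and 210 CPM in 25Q [SLX5], against 107 and 131 CPM in 25Q [V]. It was higher in each plasmid library, at 0.73 on the log2 scale (SE 0.19, edgeR adjusted p = 0.373), and had a DESeq2 adjusted p of 0.0103. FIT2, a mannoprotein that holds iron-carrying siderophores in the wall, stood at 156, 160 and 150 CPM in 25Q [SLX5], against 95.2 and 109 CPM in 25Q [V]. Its groups were each tight, 0.60 apart on the log2 scale (SE 0.10, edgeR adjusted p = 0.0864), with a DESeq2 adjusted p of 4.43e-05. With the clone letter as a replicate block, edgeR called FIT2 (adjusted p = 0.0212). The 19 listed genes of iron uptake and use, FIT2 among them, were split, with 9 positive and 10 negative.

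HPF1, a wall mannoprotein, was at 535, 604 and 665 CPM in 25Q [SLX5], against 467 and 462 CPM in 25Q [V]. CSS1 was at 195, 173 and 180 CPM in 25Q [SLX5], against 124 and 143 CPM in 25Q [V]. SRL3, a cell cycle gene whose product holds back the start of the cycle, was at 87.6, 98.0 and 99.4 CPM in 25Q [SLX5], against 62.9 and 68.4 CPM in 25Q [V]. DESeq2 called all of them, together with YCL049C (main-fit log2 fold change 0.33, SE 0.07). For SRL3 the log2 fold change was 0.53 (SE 0.10) with all libraries and also 0.53 without those of clone letter a.

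The 4 genes that the study assayed by RT-PCR did not pass the test here. HBT1, encoding a protein of cell shape during mating, stood at 342, 325 and 332 CPM in 25Q [SLX5], against 246 and 295 CPM in 25Q [V], and UIP4, of the nuclear envelope, at 374, 352 and 354 CPM in 25Q [SLX5], against 306 and 346 CPM in 25Q [V]. Both were higher without overlap, with log2 fold changes of 0.30 for HBT1 and 0.14 for UIP4 (SE 0.12 and 0.15). Without 25Q [V] a these were 0.17 for HBT1 and 0.06 for UIP4, and without 25Q [V] b UIP4 was at 0.23. UBC11 was at 2.24 to 3.24 CPM in 25Q [SLX5] and 3.48 to 3.86 CPM in 25Q [V]. ACT1, the actin gene often used as a reference, was at 1983 to 2141 CPM in 25Q [SLX5] and 1778 to 1838 CPM in 25Q [V], which is 0.17 on the log2 scale (SE 0.07, edgeR adjusted p = 0.503).

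The same plasmid was also placed in cells with the expanded Htt103Q, in 6 libraries that share none with the 25Q comparison. There 1 gene, SLX5, was called by edgeR's main test (0.0158%). The smaller count does not mean a weaker effect of the plasmid, since low p-values were more common in Htt103Q than in 25Q. HIS5 had an unadjusted p of 0.0468 and an adjusted p of 0.211 in Htt103Q (edgeR). In 25Q it had an unadjusted p of 0.00204 and an adjusted p of 0.371 (edgeR). The paper, by its own procedure, reports many more genes changed by the plasmid in Htt103Q than in 25Q. It first screened genes for a difference in any condition, so its counts are not on the scale of the main test. In 25Q the count depended on the test, with 3 calls by the main test and 34 by DESeq2. A likelihood ratio procedure modelled on the study's gave 32 in 25Q. Counts by other tests in Htt103Q are not given here. The log2 fold change of SLX5 was 3.50 (SE 0.15) in Htt103Q and 3.60 in 25Q, and the adjusted p of their difference was 0.926 (edgeR). Its level was lower in both Htt103Q groups, at 494 to 752 CPM in Htt103Q [SLX5] and 50.1 to 65.2 CPM in Htt103Q [V].

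SNZ1 stood at 196, 215 and 188 CPM in Htt103Q [SLX5], against 212, 254 and 230 CPM in Htt103Q [V], with a log2 fold change of -0.22 (SE 0.08). For LYS20 it was -0.29 (SE 0.08), and for SNO1 it was -0.01 (SE 0.11). The effect in Htt103Q minus that in 25Q had an unadjusted p of 0.000653 for SNZ1, 0.00470 for LYS20 and 0.00510 for SNO1, and an adjusted p of 0.792 for each (edgeR). No gene of 6321 passed that test (0% called, with 348 or 5.51% at an unadjusted p under 0.05, and 0 calls by DESeq2). A difference between the cell lines in the response to the plasmid was therefore not shown for any of them. ARG1 had -0.65 (SE 0.13) in Htt103Q, beside -0.94 in 25Q.

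**Figure D5:**
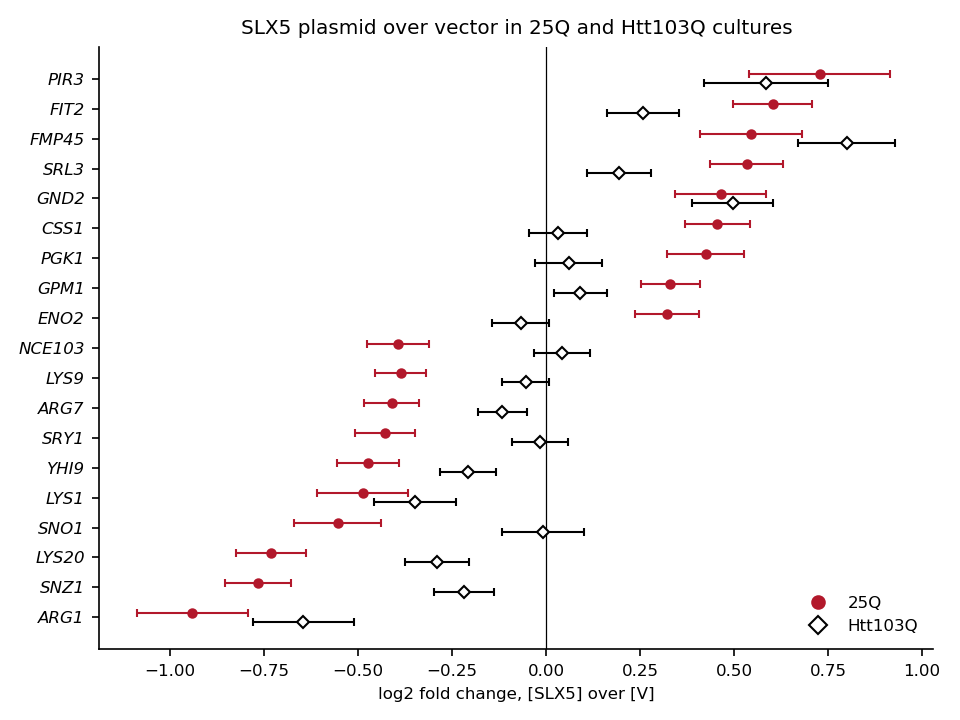
Log2 fold change with its SE for 19 genes in 25Q (red circles, 25Q [SLX5] over 25Q [V]) and in Htt103Q (open diamonds, Htt103Q [SLX5] over Htt103Q [V]). The genes were picked for their 25Q values, so larger sizes in 25Q are built in. SNO1 lies at -0.55 in 25Q and -0.01 in Htt103Q, and GND2 at 0.46 and 0.50.

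Of the lists, ribosome biogenesis had a median of -0.24 in 25Q and -0.22 in Htt103Q. Stress genes had 0.29 in 25Q and 0.50 in Htt103Q, and chaperones 0.14 in 25Q and -0.11 in Htt103Q. Lysine synthesis had -0.39 in 25Q and -0.11 in Htt103Q, and arginine synthesis -0.41 in 25Q and -0.14 in Htt103Q. The differences between these medians were not tested.

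SNZ1 and LYS20 both lost their call without the vector library of clone letter a. Without 25Q [V] a, SNZ1 was at -0.74 (adjusted p = 0.165, edgeR) and LYS20 at -0.63 (adjusted p = 0.425, edgeR), and SLX5 was the one gene called. LYS20 also missed the threshold without 25Q [SLX5] a (adjusted p = 0.0955, edgeR) and without 25Q [SLX5] c (-0.75, adjusted p = 0.0747, edgeR). Without any library of clone letter a, leaving 2 plasmid libraries and 1 vector library, edgeR called SLX5 alone. DESeq2 on those libraries called SLX5 and SNZ1 (adjusted p = 9.64e-04 for SNZ1). All 34 genes of the full DESeq2 set kept their sign there, 31 of them with a smaller size, and the median size was 0.31 against 0.40. The part of the rRNA share in these results was not tested.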

How the data were processed

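RNA of 11 cultures was sequenced by the authors. Per the labels and methods, reads were trimmed with Trimmomatic 0.36, aligned with STAR 2.5.1 to the EF4 (Ensembl) transcripts and counted with RSEM 1.2.22. The deposited table holds RSEM expected counts, with no normalization; the authors' per-sample files add TPM. Whether counting used strand is not given in the sources used here.

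Expected counts were rounded and filtered with filterByExpr (6321 of 7126 genes kept), normalized by TMM and fitted with 1 mean per group over all 11 libraries in edgeR 4.0.16 (glmQLFit, glmQLFTest, two-sided, Benjamini-Hochberg over all genes). The common dispersion of 0.0121 corresponds to an 11.0% coefficient of variation. Each SE was derived from the fold change and its F statistic. DESeq2 1.42.0, limma voom 3.58.1 and the settings listed in the closing section were alternatives. The tests were tried on simulated data first, with 100 genes given a smaller change and 100 a larger one. The quasi-likelihood test found 75 of the smaller and 100 of the larger changes, with 9 false calls. DESeq2 found 82 and 100, with 24 false calls, so its calls are the less strict.

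Gene symbols and sequences come from RefSeq R64 (6048 identifiers matched). The members and gene lists were chosen with earlier results of these data known. Named genes were SLX5 and the genes called, the 12 largest rises and 12 largest falls among DESeq2 calls with at least 10 CPM and no overlap, all members of 7 short lists, and up to 4 members of each other list by smallest p. Of the genes this rule names, 1 is not reported here, nor is 1 motif window.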

Additional observations from a re-analysis of the deposited data

How the results depend on the processing

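The 3 genes called became 34 under DESeq2 and 32 under a likelihood ratio procedure modelled on the study's. The paper names an F-like first test and no likelihood ratio test, so this procedure is a reconstruction. Its first step passed 4158 genes, a different number from the paper's. The count of calls was 8 when the 25Q groups were fitted alone. It was 362 when DESeq2 was fitted to the 25Q groups alone (chosen after seeing the data). It was 1 without the libraries of clone letter a, where 2 libraries remain against 1. Leaving out 1 library at a time gave 1 to 4 calls. The cause of these differences was not tested, other than that fewer libraries entered some fits. The other settings (RLE, no filter, at least 10 CPM, no rounding, robust dispersions, voom, adjusted p under 0.01, SLX5 left out, and DESeq2 without clone letter a, chosen after seeing the data) gave 2 or 3. The difference between Htt103Q and 25Q had 0 calls, 1 under the likelihood ratio procedure and 0 to 3 when 1 library was left out, the 3 without Htt103Q [V] c. The letters were not taken as pairs, since no source says that a letter marks a shared culture or day and only 2 letters occur in both 25Q groups. The libraries of letter a deviated together (correlation 0.139) and those of letter b did not (-0.07), but with 2 vector libraries the deviations of one mirror the other and the values are not independent. With a replicate block there were 4 calls for the 25Q comparison, FIT2 (adjusted p = 0.0212, edgeR) being added, and 0 for the difference. No log2 fold change printed for the 39 genes followed changed sign in any setting: of 1012 values, 919 kept their side of the threshold, 85 crossed into it and 8 crossed out of it, the last for SNZ1 and LYS20. With 2 vector libraries, 0 calls in a list does not show that its genes were equal in the 2 groups.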

Other observations

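Ergosterol synthesis genes, which make the main sterol of the yeast membrane, were lower in 19 of 25 cases. Of the 25, 14 were lower without overlap, against 18.8% of all genes tested. The median log2 fold change was -0.15, and -0.05 without the libraries of clone letter a. None passed edgeR's test. IDI1, the isopentenyl diphosphate isomerase gene, was called by DESeq2 and stood at 258, 261 and 258.5 CPM in 25Q [SLX5], against 319 and 300 CPM in 25Q [V]. ERG11, the lanosterol demethylase gene, was at 423 to 438 CPM in 25Q [SLX5] and 518 CPM in both 25Q [V] libraries. Genes of galactose use were positive in 10 of 10 cases, with a median of 0.12 and none past the test. Of 19 hexose transporter and sensor genes, 16 were positive, with a median of 0.19, which was 0.09 without the libraries of clone letter a. In the respiratory chain and ATP synthase, 30 of 41 genes were negative, with a median of -0.05. MET17, the homocysteine synthase gene, stood at 98.0, 148 and 135 CPM in 25Q [SLX5], against 223 and 166 CPM in 25Q [V], and did not pass the test.

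Some further lists lay away from the median of all genes, with no member past the test. Leucine, isoleucine and valine synthesis, a list that holds the integration marker LEU2, had a median of -0.15, with 9 of 12 genes negative. Glutamate, glutamine, asparagine and proline synthesis had -0.11, with 6 of 9 negative. Trehalose and glycogen metabolism had 0.09, with 18 of 23 positive. The genes of a-type cells, 5 tested, had 0.21, with members from -0.625 to 0.342, and those of alpha-type cells 0.07. Some a-type genes had low counts, such as AGA2 at 0.0729 to 0.198 CPM in 25Q [SLX5] and 0.170 to 0.205 CPM in 25Q [V]. Amino acid uptake and sulfur metabolism were both at -0.06. Thiamine synthesis was at 0.00, purine synthesis at -0.01, pyrimidine synthesis at -0.05, phosphate genes at -0.01, silencing and rDNA genes at -0.01, histone genes at 0.01 and pheromone response genes at -0.04. Of the 805 genes left out by the filter, 273 had a count in the 5 libraries, and 0 had 3 or more counts in each 25Q [SLX5] library with none in 25Q [V].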
